A study of Mus musculus with 2 samples.

Results

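The cells described here are 70 of the 7023 cells in the series, picked for high expression of Gpx2, Ly6d, Epcam, Cldn7, Rab25 and Nmu. Each gene's deposited log value was turned into a z score over all cells, and the mean z of the 6 genes was the score of a cell. Cells with at least 3 of the 5 pluripotency genes Utf1, Tdgf1, Tdh, Nanog and Dppa4 detected were set aside. The 6466 remaining cells, called gated cells below, were ranked by score and the 70 highest were taken from both libraries together. The score genes and the gate genes chose the cells, so their values are a description and are left out of every count over genes.

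The series holds mouse embryonic fibroblasts (MEFs) that carry STEMCCA, a transgene from which doxycycline induces Oct4, Sox2, Klf4 and c-Myc together, profiled unsorted at day 16 of reprogramming by droplet single-cell 3' RNA-seq. All cells received doxycycline and ascorbic acid in mouse ESC medium with serum and LIF, and no untreated cells were analysed here. The study used 2 independent STEMCCA mouse systems, and GEO's labels leave the system of each library unnamed. The 2 libraries form 1 group in the labels, and the sources used here give no strain, transgene allele or sex of the cells. In all, 3109 cells with 54145377 UMIs came from replicate 1 and 3914 cells with 64654306 UMIs from replicate 2, where a UMI (unique molecular identifier) stands for 1 captured RNA molecule.

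Epithelial cells are held in sheets by adherens junctions, desmosomes and tight junctions, and their cytoskeleton carries pairs of type I and type II keratins. Fibroblasts instead secrete collagen-rich matrix and carry the intermediate filament vimentin. Reprogramming of fibroblasts passes through a mesenchymal-to-epithelial transition, in which Epcam and Cdh1 are switched on and mesenchymal genes are switched off. Of the score genes, Epcam is an epithelial adhesion molecule, Cldn7 a claudin of the tight junction, Rab25 a small GTPase of apical recycling endosomes, Gpx2 an epithelial glutathione peroxidase, Ly6d a GPI-anchored surface protein and Nmu the neuropeptide neuromedin U.

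Promoters of 3 score genes and of Krt8 are shown as examples. Outside the score, Krt8 had the largest ratio among genes of at least 1 UMI per 10000. The windows shown hold the E-box CACCTG, the letters that the mesenchymal repressors Zeb1 and Snai1 are known to recognise. The sequences come from RefSeq on GRCm38.p6, run 5′ to 3′ on the strand of the gene from 250 bases before to 50 bases after an annotated start, and capitals mark CACCTG on either strand. They span chr17:87635729-87636028 (Epcam, plus strand), chr11:69965171-69965470 (Cldn7, plus strand, the second of its listed starts), chr3:88548230-88548529 (Rab25, minus strand) and chr15:102004293-102004592 (Krt8, minus strand).
Epcam: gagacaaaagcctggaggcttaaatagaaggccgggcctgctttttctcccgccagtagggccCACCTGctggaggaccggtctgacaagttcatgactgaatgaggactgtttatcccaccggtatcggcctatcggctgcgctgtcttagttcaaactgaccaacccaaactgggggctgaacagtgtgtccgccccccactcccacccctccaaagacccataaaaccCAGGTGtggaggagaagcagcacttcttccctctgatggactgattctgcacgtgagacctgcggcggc
Cldn7: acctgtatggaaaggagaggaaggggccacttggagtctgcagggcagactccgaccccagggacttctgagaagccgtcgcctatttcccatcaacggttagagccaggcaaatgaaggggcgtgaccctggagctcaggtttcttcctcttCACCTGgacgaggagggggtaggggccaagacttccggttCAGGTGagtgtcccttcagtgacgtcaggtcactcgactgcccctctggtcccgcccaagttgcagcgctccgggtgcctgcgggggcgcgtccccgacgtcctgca
Rab25: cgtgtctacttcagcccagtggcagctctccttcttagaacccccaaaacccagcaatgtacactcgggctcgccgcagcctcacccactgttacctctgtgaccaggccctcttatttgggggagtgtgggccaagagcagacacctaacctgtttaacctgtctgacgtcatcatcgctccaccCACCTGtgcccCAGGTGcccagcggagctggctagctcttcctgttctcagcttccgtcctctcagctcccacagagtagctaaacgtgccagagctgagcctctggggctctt
Krt8: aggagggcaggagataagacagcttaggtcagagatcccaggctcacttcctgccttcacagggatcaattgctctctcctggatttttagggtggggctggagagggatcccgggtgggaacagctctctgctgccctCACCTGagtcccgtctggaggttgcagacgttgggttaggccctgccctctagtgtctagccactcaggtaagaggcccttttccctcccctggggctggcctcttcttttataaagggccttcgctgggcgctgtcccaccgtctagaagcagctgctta
The letters begin at -187 and -19 from the start in Epcam, at -97 and -57 in Cldn7, at -64 and -53 in Rab25 and at -111 in Krt8. Among promoters not shown, those of the score genes Gpx2 (at 25) and Nmu (at -236) hold the letters too. So do those of Krt18, Spint2 and Wfdc2. The other listed start of Cldn7 has 0 matches in its window, and so do the windows of Vim and Col1a2. The table holds no promoter entry for Ly6d or Cdh1.

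The chosen cells were unevenly spread over the libraries. Replicate 1 held 63 of them, 2.14% of its 2949 gated cells (exact 95% binomial interval 1.65 to 2.73%). Replicate 2 held 7, 0.199% of its 3517 gated cells (0.0801 to 0.410%). Intervals cover counting error only. Mouse system, culture and library cannot be told apart in this difference. The libraries shared 12 cell barcodes, and 0 of the chosen cells carried one.

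The score fell without a gap across the limit. It was 9.90 in the highest cell, 1.74 in the cell ranked 70 and 1.73 in the cell ranked 71. Ranks 66 and 69 each had 1 of the 6 score genes, and that gene was Ly6d, with 17 and 13 UMIs. Of the 63 chosen cells of replicate 1, 18 had all 6 score genes, 23 had 5, 9 had 4, 8 had 3, 3 had 2 and 2 had 1. Epcam together with Cldn7 or Rab25 was found in 54 of the 63. The lowest ranks thus differ from the bulk, and results that rest on the 58 cells with at least 3 score genes are given in the closing section.

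**Figure D1:**
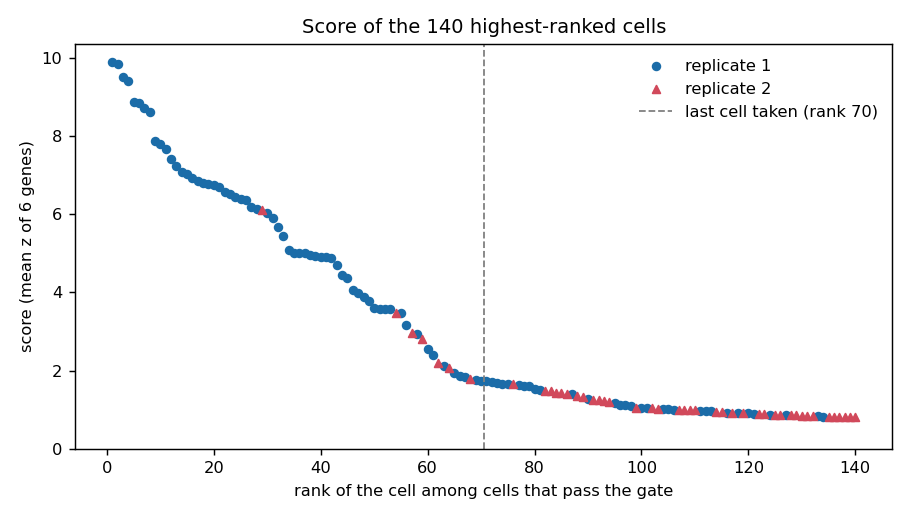
The score (mean z of the 6 genes) of the 140 highest gated cells against their rank, by library, with a dashed line after rank 70. The score passes from 1.74 to 1.73 at the line, and 7 of the 70 cells to its left are from replicate 2.

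All further comparisons are within replicate 1, the 63 chosen cells against its 2886 other gated cells. A level is the sum of a gene's UMIs over a set of cells per 10000 UMIs of that set, and intervals on levels and on their ratios are exact at 95% and count UMIs, not cells or cultures. The cells were chosen on their own values and both sides come from 1 library, so no test was run and no p-value is given. The chosen cells held 1405065 UMIs, with a median of 21064 per cell (12012 to 46430) and 3819 detected genes, and the other cells had medians of 15021.5 UMIs and 3251 genes. The chosen cells were thus the deeper ones, and shares of cells with a UMI are therefore also given with every cell thinned to 3000 UMIs. The median mitochondrial share was 3.79% in the chosen cells and 4.07% in the others. No doublet caller was run, and the sources used here do not state whether doublets were removed before deposit.

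The genes that chose the cells had these levels. Epcam was at 7.20 UMIs per 10000 in the chosen cells and 0.0623 in the others, with 0 to 36 UMIs per cell and a median of 14. Gpx2 was at 4.50 against 0.00894, with 0 to 42 UMIs per cell and a median of 8. Ly6d, the most unevenly spread of the 6, was found in 40 of the 63 cells at a level of 3.67 against 0.0206. Cldn7 (1.37 against 0.00353), Rab25 (1.07 against 0.00187) and Nmu (1.42 against 0.0621) were found in 51, 48 and 46 cells. Of the gate genes, Tdgf1, a co-receptor of Nodal, was found in 32 of the 63 cells at 2.16, against 0.159 in the other gated cells and 3.84 in the 160 cells of the library that failed the gate. Utf1 was found in 4 cells, Nanog in 7 and Dppa4 in 0.

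Of the 5320 genes with at least 0.2 UMIs per 10000 on either side, 163 (3.06%) were at least 2-fold higher in the chosen cells and 523 (9.83%) at least 2-fold lower, on log2(level + 0.1). The median log2 ratio over all of them was -0.01. These shares are the background for the counts over gene lists below. A gene that reached the minimum level on 1 side alone could differ in 1 direction only, which held for 486 genes that reached it in the chosen cells alone and 905 in the other cells alone.

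**Figure D2:**
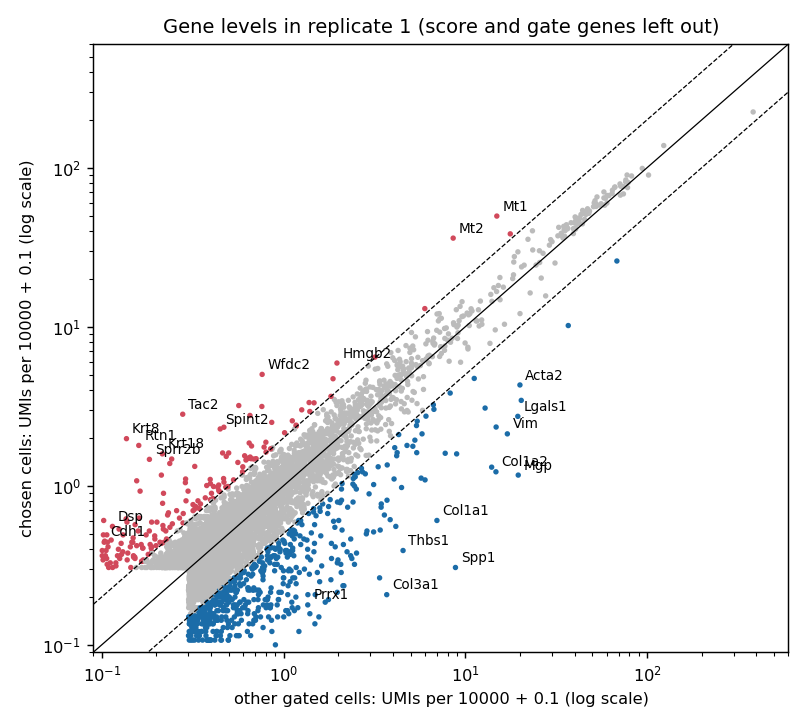
Levels of the 5320 genes in the chosen cells (vertical) against the other gated cells of replicate 1 (horizontal), both in UMIs per 10000 plus 0.1 on log axes, with a solid line of equality and dashed lines at 2-fold. Red genes were at least 2-fold higher (163) and blue genes at least 2-fold lower (523) in the chosen cells.

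Simple-epithelial keratins were high in the chosen cells, although keratins had no part in the choice. Krt8, the type II keratin of simple epithelia, was at 1.88 UMIs per 10000 (1.66 to 2.12) against 0.0368, a ratio of 51.1 (42.1 to 62.2). Its partner Krt18 was at 1.49 (1.29 to 1.70) against 0.116, a ratio of 12.9 (10.9 to 15.1). Each was found in 49 of the 63 cells, and 43 cells held both of them together with Epcam. At 3000 UMIs per cell Krt8 was found in 38.1% of the chosen cells (26.1 to 51.2%) and in 0.762% of the others (0.478 to 1.15%), against 77.8% and 3.29% unthinned. The part of free RNA in these shares was not tested. Krt19, found in 14 cells, was at 0.299 against 0.180, and Krt7 was found in 4 cells.

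Junction genes followed in part. The tight junction genes Cldn3 (0.826 against 0.0625), Cldn4 (0.342 against 0.00312) and Crb3, an apical polarity protein (0.391 against 0.00208), were higher, as was the junctional adhesion molecule F11r (0.598 against 0.218). The scaffold Tjp1 was at 0.242 against 0.454 and so lay on the other side. Cdh1, the classical cadherin of epithelia, was found in 25 of the 63 cells at 0.349 (0.258 to 0.461) against 0.00374, a ratio of 93.2 (53.4 to 170.1). The desmosomal genes Dsp (0.456 against 0.0145), Pkp1 (0.249 against 0.00644) and Perp (0.797 against 0.302) were also past 2-fold. The catenins did not differ to that extent, with Ctnnb1 at 1.13 against 1.54, Ctnna1 at 0.854 against 0.978 and Jup at 0.470 against 0.625.

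Genes of apical membrane and trafficking were high as well. Of the 8 that passed the minimum level, each past 2-fold, 5 reached it in the chosen cells alone (Spint1, St14, Ap1m2, Bspry and Lsr), so their count was largely fixed by the filter. Spint2, an inhibitor of membrane serine proteases, was found in 61 of 63 cells at 2.18 against 0.349, and its relative Spint1 was at 0.797 against 0.119. St14, the protease that both inhibit, was at 0.491 against 0.0376. Ap1m2, the epithelial subunit of the AP-1 clathrin adaptor, was at 0.292 against 0.000623, where the other cells held 3 UMIs in all, a ratio of 468.1 with a wide interval (149.3 to 2363). Bspry (0.505 against 0.00249), Lsr of tricellular junctions (0.520 against 0.0362), the membrane-cytoskeleton linker Ezr (1.51 against 0.399) and Cd24a (1.68 against 0.567) complete the group.

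Transcription and splicing factors of epithelia were low in level. The ETS factors Elf3 (0.221 against 0.00707) and Ehf (0.555 against 0.130) and the Kruppel-like factor Klf5 (0.327 against 0.0648) were the 3 that passed the minimum level, each past 2-fold. All 3 reached it in the chosen cells alone, so they could be higher but not lower. Below the minimum, the splicing regulator Esrp1 had 28 UMIs in 22 cells (0.199 against 0.00166), Ovol2 22 UMIs in 18 cells and Grhl2 11 UMIs in 11 cells. Trp63, Foxa1, Foxa2 and Pax8 had 0 UMIs in the chosen cells.

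Over the 5 epithelial lists, 29 of 77 genes in the table passed the minimum, 21 were at least 2-fold higher, 0 were at least 2-fold lower and the median log2 ratio was 1.69. Of the 29, 19 reached the minimum in the chosen cells alone and so could be higher but not lower. Of the 10 that reached it in the other cells, 5 were higher (F11r, Perp, Spint2, Ezr and Cd24a) and 0 lower, where 1.41% of all such genes were higher. The remaining 48 genes were too low on both sides to be counted, and 7 of the 77 had 0 UMIs in the chosen cells.

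**Figure D3:**
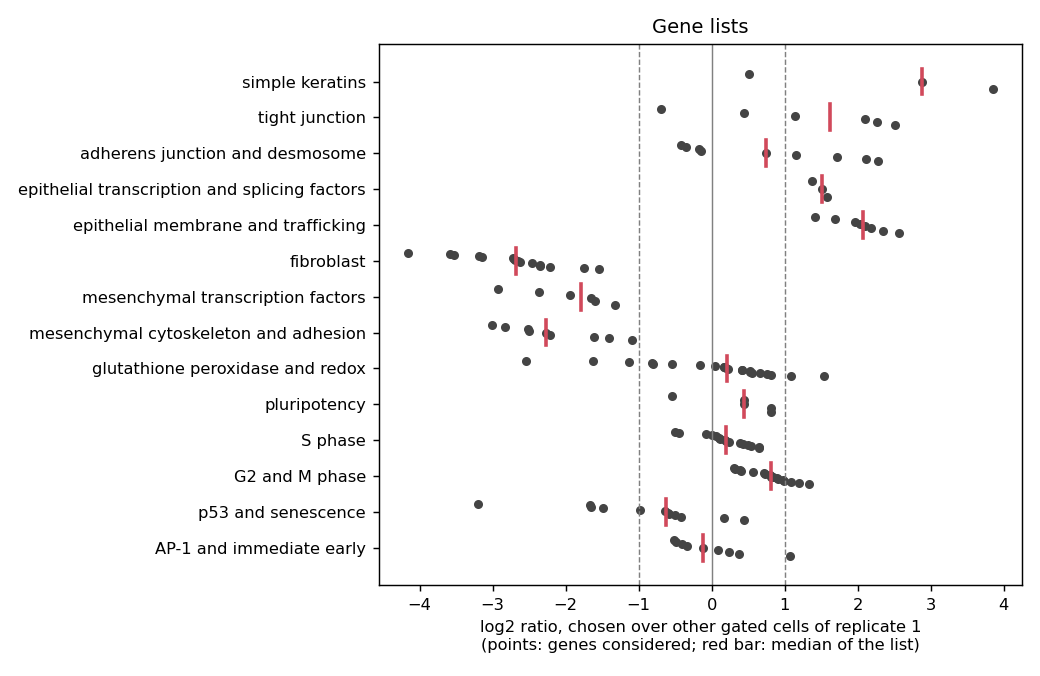
The log2 ratio of each considered gene (points) in the chosen over the other gated cells of replicate 1, by gene list, with the median of each list as a red bar and dashed lines at 2-fold. The 3 mesenchymal lists lie wholly left of the 2-fold line, while epithelial lists lie to the right except for junction genes shared with other cell types.

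Fibroblast and mesenchymal genes were low throughout. All 31 considered genes of the 3 mesenchymal lists were at least 2-fold lower, with a median log2 ratio of -2.47, and the 14 of them that reached the minimum in the chosen cells were all lower, where 3.83% of all such genes were lower. Vim was at 2.02 UMIs per 10000 (1.79 to 2.27) against 16.9, or 8.38-fold lower (7.46 to 9.45). Col1a2, a chain of collagen I, was at 1.12 against 14.6, or 13.0-fold lower (11.1 to 15.3), and Col3a1 was at 0.107 against 3.60. Among transcription factors of mesenchyme, Prrx1 was at 0.0783 against 1.26, Zeb1 at 0.0285 against 0.391, Zeb2 at 0.0142 against 0.245 and Tcf4 at 0.498 against 1.78. The contractile genes Acta2 (4.21 against 19.9) and Tagln (1.502 against 7.66) were lower as a whole but very uneven, with up to 228 UMIs of Acta2 in 1 cell and a median of 3. Among the 15 genes with the lowest ratios, Spp1, which encodes the secreted protein osteopontin, came first (0.206 against 8.73), and Mgp, an inhibitor of calcification, was at 1.07 against 19.5.

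The cells can be placed by their summed levels. Genes of the epithelial lists added up to a median of 23.3 UMIs per 10000 per cell (5.04 to 51.6) in the chosen cells, 6.69 in the other gated cells and 10.9 in the cells that failed the gate. The chosen cells overlapped the others, yet 60 of the 63 lay above the others' median and 40 above their 99th percentile (19.8). Mesenchymal genes added up to 11.6 (4.57 to 234.1) against 115.7, and 62 of the 63 cells lay below the others' median and 38 below their 1st percentile (13.5). The cells that failed the gate, which carry pluripotency genes, had a median of 11.6 as well. The drop in the epithelial sum lay inside the limit: the 5 cells of replicate 1 ranked 65 to 70 had 12.8, 7.37, 5.99, 5.04 and 11.4. Cells ranked 71 to 140 by the score, from both libraries, had medians of 7.65 for the epithelial and 29.2 for the mesenchymal lists.

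One chosen cell, ranked 50, held both programmes. It had 39345 UMIs with 22 of Epcam, 10 of Krt8, 41 of Vim and 43 of Col1a2, and its mesenchymal sum of 234.1 was the highest of the chosen cells. A droplet with 2 cells and 1 cell with both programmes cannot be told apart there. Without it, 171 genes were higher and 538 lower, against 163 and 523.

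**Figure D4:**
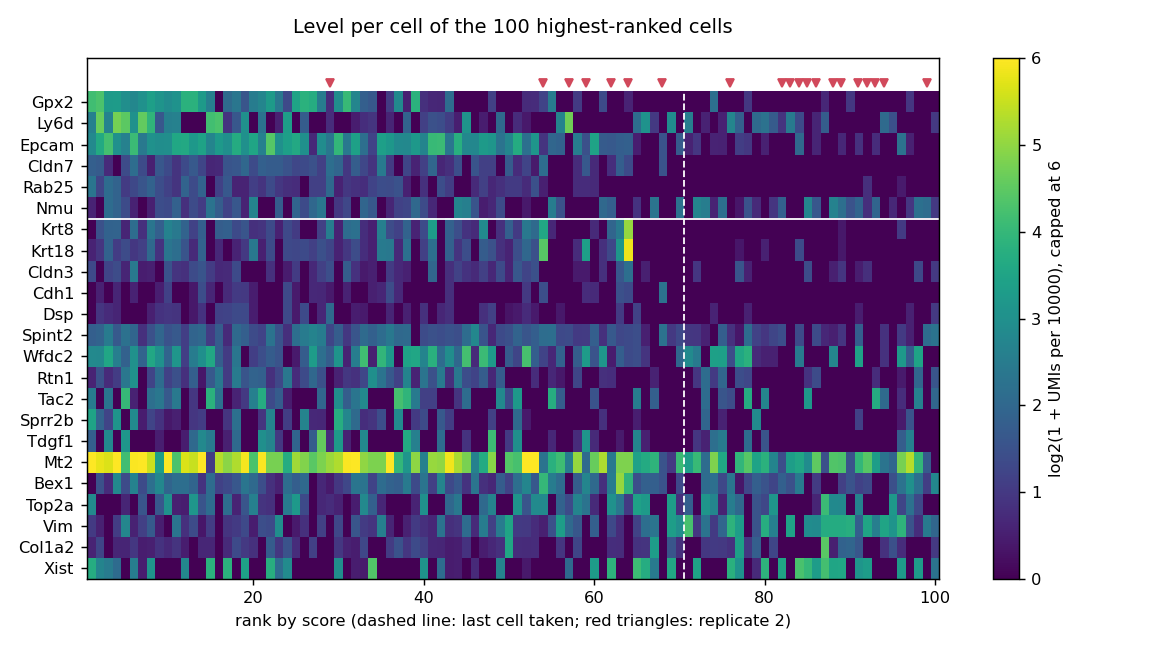
Levels per cell, as log2(1 + UMIs per 10000) capped at 6, of 23 genes (rows) in the 100 highest gated cells (columns, by rank), with the 6 score genes above the white line, a dashed line after rank 70 and red triangles over cells of replicate 2. Krt8 and Krt18 run through most chosen cells of replicate 1 and thin out after rank 64, while Tac2, Sprr2b, Tdgf1 and Xist appear in scattered cells.

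Beyond the epithelial lists, the genes with the highest ratios were a mixed group. Of the 25 highest, Wfdc2, a secreted protein of the whey acidic protein family, was at 4.92 (4.56 to 5.30) against 0.663 and was found in 57 of 63 cells. Rtn1, a reticulon of the endoplasmic reticulum, was at 1.69 against 0.0598 in 53 cells. Tac2, which encodes neurokinin B, was at 2.72 against 0.179 but in 38 cells, with up to 31 UMIs. Lgals7 (1.28 against 0.137) and Sprr2b (1.37 against 0.0829, in 36 cells) are genes of stratified epithelia. The metallothioneins, which bind zinc and copper, were abundant: Mt2 at 35.99 against 8.48 and Mt1 at 49.6 against 14.8, with 1 to 527 UMIs of Mt1 per cell. The X-linked Bex1 (3.096 against 0.467), Bex2 (1.07 against 0.113) and Bex4 (2.24 against 0.370) were higher too. Reads of Bex, metallothionein and Sprr2 genes may be split among near-identical copies, so the share of each copy is uncertain.

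The remaining genes of the 25 spread over several functions. Dhrs4, a short-chain dehydrogenase, was at 2.67 against 0.554, Cd59a, an inhibitor of complement, at 3.05 against 0.660, and the kinase Mapk13 at 1.22 against 0.225. Dmrtc2 (1.00 against 0.189), Igfbpl1 (1.51 against 0.362), the receptor-modifying protein Ramp3 (2.41 against 0.761) and the transcription factor Sox11 (1.76 against 0.547) were also among them. Smagp, a small transmembrane adhesion glycoprotein, was at 1.37 against 0.143. Apoe, the apolipoprotein, was at 1.43 against 0.384 but at 11.6 in the cells that failed the gate. Hmgb2, a chromatin protein of dividing cells, was at 5.82 against 1.87.

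Other gene lists are read against 3.06% of all considered genes higher and 9.83% lower. Of the redox genes, 2 of 22 were higher (Gsta3 at 0.577 against 0.133 and Sod2 at 2.06 against 0.914) and 3 were lower, among them Gpx3 (0.285 against 2.14). Gsta3 reached the minimum level in the chosen cells alone, so it could be higher but not lower. The high level of Gpx2 was not shared by the 5 relatives considered, with Gpx4 at 10.1 against 9.04 and Gpx1 at 3.94 against 5.79. Of the p53 and senescence genes, 0 of 12 were higher and 4 were lower, among them Igfbp3 (0.0925 against 1.67), Cdkn2a (0.406 against 1.32) and Cdkn2b (0.0712 against 0.443). Igfbp3 and Cdkn2b reached the minimum in the other cells alone, so they could be lower but not higher. Jun alone of 9 AP-1 and immediate early genes was higher (1.38 against 0.607). Of 5 considered WNT, EGFR and integrin signalling genes 4 were higher, among them the receptor Erbb3 (0.206 against 0.00914), Fgfbp1 (0.491 against 0.0881) and Plet1 (0.335 against 0.0278), and all 4 reached the minimum level in the chosen cells alone.

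Most cell cycle genes did not reach 2-fold. Of 18 considered genes of G2 and M phase, 3 were past 2-fold, namely Ccnb1 (0.833 against 0.340), Ccnb2 (1.44 against 0.511) and Cenpf (2.46 against 1.02), with a median log2 ratio of 0.81. The number past 2-fold ranged from 0 to 9 over other settings and was 1 against other cells of the same depth. The summed level of the list over all cells of a set was 18.8 in the chosen cells, 10.2 in the others and 19.8 in the cells that failed the gate. The medians per cell were further apart, 10.7 (0 to 59.7), 1.11 and 16.9, and 780 of the 2886 others had 0 UMIs of the list. Of 16 genes of S phase 0 were past 2-fold either way. The summed level of the S phase list was 8.26 in the chosen cells and 7.20 in the others. Its medians per cell were 7.02 and 3.16, and 52 of the 63 chosen cells lay above the others' median. The chosen cells were also deeper, and the part of depth in this was not tested beyond the settings in the closing section.

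Defining markers of other lineages were low, but not every list sum was lower than in the other gated cells. Of 10 macrophage markers 9 had 0 UMIs in the chosen cells, with Cd68 at 9 UMIs. The whole list had 0 UMIs in 55 of the 63 chosen cells and in 2649 of the 2886 others. The highest sum in a cell was 0.832 and 428.3. Of 15 trophoblast genes 7 had 0 UMIs, among them Eomes, Hand1 and Tpbpa. The trophoblast sum was 0.214 (0.144 to 0.305) over the chosen cells against 0.162 over the others. Of 12 mesothelium genes 7 had 0 UMIs, among them Wt1 and Upk3b. The mesothelium sum was nonetheless 0.769 over the chosen cells against 0.571 over the others, with up to 7.76 in 1 cell, through Krt19, Slc9a3r1 and Msln above all. The endothelium sum was 0.370 against 0.202, mostly from Egfl7 (27 UMIs) and Tek (19 UMIs). The part of other cell types in the results was not tested. The keratins of stratified epithelia were sparse, with 9 UMIs of Krt6a in 4 cells and 0 UMIs in the 2886 others, 18 of Krt17 in 5 cells and 3 of Krt14 in 2 cells. Of the cornified envelope genes, Ivl, Lor and Sprr1a had 0 UMIs, while Sfn (0.470 against 0.0526) and Krtdap (0.391 against 0.0754) were higher through a few cells, with up to 28 and 22 UMIs. No list of stomach and gut, airway or bladder epithelium had a gene above the minimum, but only 7 of 19, 3 of 10 and 4 of 7 of their genes were in the table. The label epithelial-like rests on Krt8, Krt18, junction and membrane genes, and an organ of origin cannot be read from these lists.

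Pluripotency genes outside the gate stayed far below the cells that failed the gate, but their sum was above that of the other gated cells. The sum was 4.73 (4.38 to 5.11) over the chosen cells and 2.99 (2.94 to 3.04) over the other gated cells. It was 65.7 over the cells that failed the gate. Dppa5a was at 0.157 UMIs per 10000 against 0.168 in the other gated cells and 38.4 in the cells that failed the gate, and Zfp42, Dppa3, Dppa2, Prdm14 and Tcl1 had 0 UMIs. Sox2 was at 0.249 against 0.0256, a ratio of 9.75 (6.50 to 14.3), with 2.65 in the cells that failed the gate, and was found in 20 of the 63 cells. Pou5f1 was found in 8 cells, at 0.206 against 0.0771 and 9.92. The gate removes cells with these programmes, and Sox2 and Pou5f1 reads from the cassette and from the endogenous genes cannot be told apart here. L1td1 (1.59 against 0.870) and Mkrn1 (1.12 against 0.594) did not reach 2-fold.

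Other sets of replicate 1 shared parts of the profile. The 200 gated cells with the highest mean z of Tac2, Rnase1 and Ramp3, a set chosen after the data had been seen, had levels above those of the other gated cells for Cd59a (2.07), Bex1 (1.44), Dmrtc2 (0.779), Igfbpl1 (1.13) and Sox11 (0.975). Their epithelial genes were far below those of the chosen cells: Epcam was at 0.260 (0.0623 in the other gated cells), Krt8 at 0.0423 (0.0368), Cdh1 and Cldn7 had 0 UMIs, and the medians of the epithelial and mesenchymal sums were 7.45 and 34.7. The 200 cells with the highest mean z of Krt19, Msln and Itgb4 had Krt18 at 0.478 and Cd24a at 1.28 but Vim at 25.6, and a mesenchymal median of 140.5. The cells that failed the gate came closest in Spint2 (1.16), Cdh1 (0.327), Cldn4 (0.303), Ezr (1.06) and Wfdc2 (2.13), and had Krt8 at 0.134, Rtn1 at 0.0997 and Tac2 at 0.316. The chosen cells thus had Krt8 and Krt18 beside the junction genes, Rtn1 and Tac2, and each of the other sets had a part of these. These differences were not tested.

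**Figure D5:**
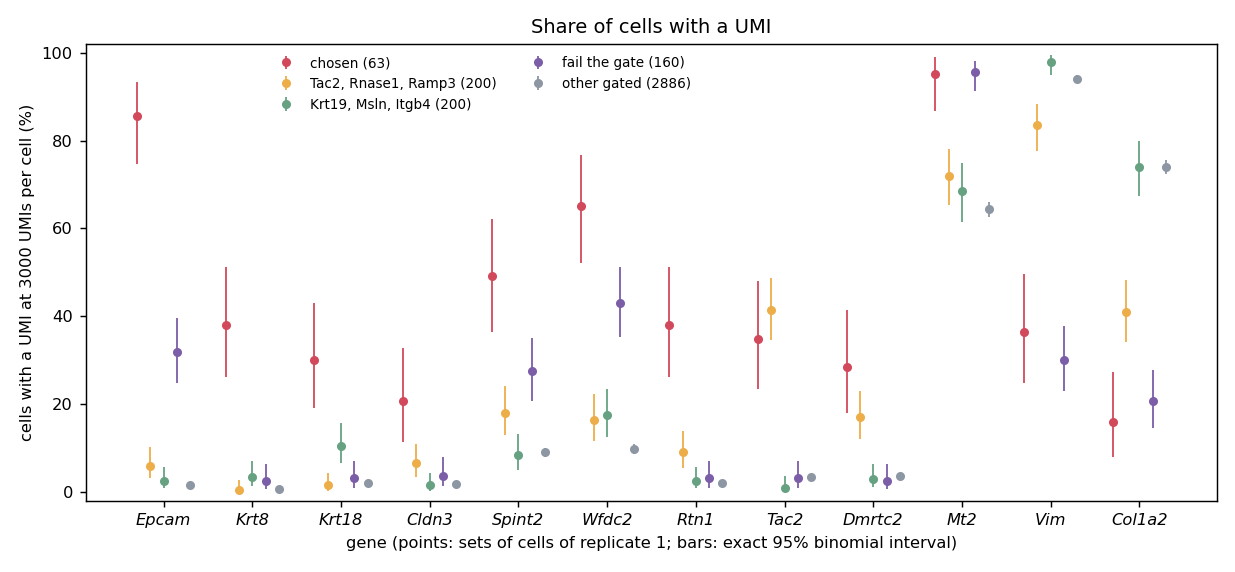
Share of cells with a UMI at 3000 UMIs per cell for 12 genes in 5 sets of replicate 1, with exact 95% binomial bars; the Tac2 share of the set ranked on Tac2, Rnase1 and Ramp3 and the Epcam share of the chosen cells reflect the choice. Krt8 was found in 38.1% of the chosen cells and in at most 3.50% of the cells of each of the other 4 sets, whereas Mt2 was found in 95.2% of the chosen cells and 95.6% of cells that failed the gate.

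The chosen cells also varied among themselves. The genes with the highest variance-to-mean ratio over the 63 cells were Malat1, Mt1, Actg2, Ifitm1, H19, Acta2, Tagln, Mt2, Meg3 and Tmsb4x. Actg2, smooth muscle actin, had a median of 2 UMIs and up to 199, with 0 in 20 cells, and H19, an imprinted transcript, had 0 in 39 cells and up to 64. Mt1 and Mt2 varied together (Spearman's rho 0.92 over 63 cells), as did Krt8 and Krt18 (0.66). These are cells of 1 library, and their depth ran from 12012 to 46430 UMIs.

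The cells can be split by Ly6d, a score gene. The 40 cells with a Ly6d UMI and the 23 without had Epcam at 6.97 and 7.62, Krt8 at 2.00 and 1.66 and Cldn7 at 1.31 and 1.46 UMIs per 10000. Rtn1 was at 2.06 (1.77 to 2.38) with and 1.05 (0.785 to 1.37) without Ly6d, and Tdgf1 at 1.63 and 3.09. Xist, the RNA that coats the inactive X chromosome, was found in 62.5% of the cells with Ly6d and in 21.7% of those without, at levels of 4.30 and 1.19. Wfdc2 (5.48 with, 3.92 without), Tac2 (3.02 and 2.18) and Bex1 (2.75 and 3.72) also had intervals apart. So did the score gene Gpx2 (3.85 and 5.66), which the choice of cells ties to Ly6d. These intervals count UMIs and leave out the spread between cells. The split was made after the uneven spread of Ly6d had been seen.

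X-linked expression bears on the question of X chromosome reactivation that the study addresses. Of the 63 chosen cells, 23 had at least 2 Xist UMIs and fewer than 2 Y-linked UMIs. Another 16 had at least 2 Y-linked UMIs and fewer than 2 Xist UMIs. At least 2 of both were found in 0 cells, and 24 met none of these. The library therefore held cells with Xist RNA and cells with Y-linked RNA. Xist was at 3.18 UMIs per 10000 in the chosen cells, 4.52 in the other gated cells and 0.299 in the cells that failed the gate, and the share of cells with at least 2 Xist UMIs was 36.5%, 47.6% and 6.25%. The X-to-autosome ratio, the median level of 211 X-linked genes over that of 6690 autosomal genes, was 1.11, 1.01 and 1.23 in the same order. In the chosen cells 1 of 19 autosomes, each set against the others, had a higher ratio than X, against 11 in the other gated cells and 0 in the cells that failed the gate. The ratios of the chosen cells move in coarse steps because their medians are small whole counts of UMIs. Chromosomes 4, 7, 10 and 19 all stood at 1.08, just below X, and chromosome 15 at 1.14. The counts of autosomes thus rest on small differences, and the ratios carry no interval. Cells with Xist and Y-linked RNA are mixed in all 3 sets, and the part of that mixture was not tested.

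In replicate 2 the 7 chosen cells differed from those of replicate 1 and from each other. Epcam and Cldn7 were each found in 6 of them, and 6 had Epcam together with Cldn7 or Rab25. Krt18 was at 13.9 UMIs per 10000 and Krt8 at 7.98, against 1.49 and 1.88 in replicate 1, but 1 cell held 111 of the Krt18 and 63 of the Krt8 UMIs and another 48 and 26. Tac2, Sprr2b, Lgals7 and Igfbpl1 had 0 UMIs in the 7 cells, and Rtn1 was at 0.144. Cells with few score genes were among them: 1 with 16 UMIs of Ly6d and no other score gene, and 1 of 5271 UMIs with 1 UMI each of Epcam and Cldn7. Utf1 was found in 3 of them.

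The library labels fit the cells by Gm10709, a gene that marks the libraries, and the summed level of Rpl29 went the same way. Gm10709 was found in all 63 chosen cells of replicate 1 (8.37 UMIs per 10000) and had 1 UMI in all over the 7 cells of replicate 2. Rpl29 was at 12.9 in the chosen cells of replicate 1 and 31.8 in those of replicate 2. The other gated cells had Gm10709 at 8.36 and Rpl29 at 10.7 in replicate 1 and at 0.141 and 30.6 in replicate 2. The summed levels of the chosen cells thus lay on the side of their own library for both genes. Cell by cell, Rpl29 was split among the chosen cells of replicate 1. The cells ranked 18, 20, 25, 33, 35, 36, 38, 45, 47, 48, 58 and 70 had 0 to 6 UMIs. All other chosen cells of replicate 1 had 13 to 62. The cells low in Rpl29 held 13 to 47 UMIs of Gm10709 and 0 or 1 of Xist. Xist was also at 0 in some cells with much Rpl29, such as the cell ranked 10. What lies behind this split, and its part in the Xist and Ly6d results, was not tested.

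The E-box letters shown above were counted over promoters of the genes that were higher. Of the 163 genes 133 had a promoter entry, and 43 of these (32.3%) held CACCTG on either strand in at least 1 of their windows. Of the considered genes with an entry 17.9% held it, and 22.6% of all 27025 genes with an entry did. Counted by windows of 300 bases, the shares were 29.8% for the higher genes, 15.4% for the considered genes and 20.2% for all. The letters AACCNGTT, known as a site of Grhl factors, were found in 4 of the 133 (3.01%) and in 2.12% of the considered genes. Those of AP-2, GCCNNNGGC, were found in 25.6% against 29.7%, and those of the antioxidant response element, TGACNNNGC, in 15.0% against 17.5%. Fewer than 80% of the genes that were lower had an entry, so their check is void. Genes with several starts have more windows, and a match describes letters and is not a binding site.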

How the data were processed

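Day-16 STEMCCA reprogramming cells were profiled in 2 libraries on Chromium V2 chemistry. Per the labels and the methods, the authors generated counts with Cell Ranger (version 2.1.1) on mm10, filtered cells to between 1500 and 6000 detected genes and below 9% mitochondrial RNA, and normalised in Seurat. The authors deposited natural log values, ln(1 + UMIs per 10000 of the cell). On the linear scale 100% of nonzero entries were whole multiples of 1 UMI (tolerance 0.01), so UMIs were recovered for 17408 genes and 7023 cells (4753 to 60990 UMIs per cell), and 0 columns were unassigned. Libraries were assigned by the barcode suffix in the labels.

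The members, gene lists and comparisons were chosen with earlier results of these data known. Levels are summed UMIs per 10000. Genes of at least 0.2 on either side were called at 2-fold and ranked on log2(level + 0.1), with the score and gate genes left out. Ratios printed with an interval are of the levels themselves, without the 0.1. Log2 ratios, also those of the closing section, include the 0.1 unless another pseudocount is named. Intervals are exact (Poisson, conditional binomial for ratios, Clopper-Pearson for shares). No test was run, since the cells were chosen on these values and 1 library holds both sides. Genes were named by rule: the 25 highest and 15 lowest ratios among genes of at least 1 UMI per 10000 on the higher side, the 10 most dispersed, Xist, Y-linked and library-marking genes, and the list members with the largest ratios. Others named from the lists, the sets of similar cells and the motifs were chosen after the values were seen. Some genes of the lists are counted but not reported by name here. The script was tested on simulated data. Promoters were RefSeq windows on GRCm38.p6, matched by symbol or synonym. Tools were numpy 2.4.6, pandas 2.3.3, scipy 1.17.1 and matplotlib 3.10.9 under Python 3.11.15. The alternatives tried, among them other numbers of cells, pseudocounts, filters and depths, are in the closing section.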

Additional observations from a re-analysis of the deposited data

How the results depend on the processing

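Under 24 alternative settings Krt8, Krt18, Cdh1, Wfdc2, Mt2, Hmgb2 and Rtn1 kept a ratio above 0 on the log2 scale, though below 2-fold for Mt2 (0.40) and Rtn1 (0.87) without replicate 1 and for Cdh1 (0.43) with a pseudocount of 1, and Vim, Col1a2, Spp1 and Xist one below 0. Tac2 and Sprr2b reversed without replicate 1, to -1.64 and -0.38, and were 3.36 and 2.93 without replicate 2. The share of chosen cells in replicate 1 (90%) was 98% with 50 cells taken, 80% with 100 and 78.6% with a gate of fewer than 2 genes, and leaving out a library gives no such share. The genes at least 2-fold higher (163) numbered 256 with a pseudocount of 0.01, 19 with 1, 54 at a minimum of 1 UMI per 10000 and 362 with cells thinned to 3000 UMIs, and 159 to 691 with 1 library left out, where the 691 are of the 7 cells of replicate 2. Those lower (523) numbered 74 with a pseudocount of 1, 151 at the minimum of 1, 830 thinned and 486 to 714 with a library left out. The epithelial genes that were higher (21) numbered 3 with a pseudocount of 1 and 5 at the minimum of 1, and 22 to 25 with a library left out, and the mesenchymal genes that were lower (31) numbered 17, 20 and 25 to 31. The G2 and M genes that were higher (3) numbered 7 with 100 cells, 8, 6 and 5 with the score without Epcam, Cldn7 and Nmu, 9 and 0 with pseudocounts of 0.01 and 1, 7 by the mean over cells, 1 without the deepest of the chosen cells (57 left), 8 thinned and 6 to 9 with a library left out. The cause was not tested.

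Of the alternatives chosen after seeing the data, the 58 cells with at least 3 score genes gave 174 genes higher, 542 lower and 6 of G2 and M phase. The others of the same depth (728 cells between 17496 and 25580 UMIs) gave 136, 446 and 1, and the chosen cells without the 1 high in mesenchymal genes gave 171, 538 and 5. Of the 70 cells, 50 were among the 50 highest, 49 were kept with the gate of fewer than 2, 64 with z within each library, 61 with the score at 3000 UMIs and 64 to 69 without 1 score gene. No paired analysis was possible because the results come from no test: the cells were chosen on their own values, and each library's values are given side by side instead. Depth limits Grhl2, Ovol2 and other genes with few UMIs: 3 UMIs over the chosen cells of replicate 1 are a level of 0.0214 per 10000. Both sides lie in 1 library, so spread between cultures was not measured.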
